A study of Mus musculus with 9 samples.

Results

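Immunoglobulin variable (V) segments were followed in whole mouse lung as the rows of the gene table named for a heavy, kappa or lambda V segment whose counts summed to at least 50 over the 9 libraries. Of 212 V segments among the 32671 genes of the table, 159 met this minimum. They comprised 77 of 108 heavy chain segments on chromosome 12, 79 of 101 kappa segments on chromosome 6 and all 3 lambda segments on chromosome 16. Members were chosen by their total count over all libraries, so a segment that is abundant in a single group could enter through that group. Counts over the members are therefore descriptions and not support for a direction. The nearest segments inside the minimum were Igkv14-130 with 50 counts and Ighv2-6-8 with 52, of which 46 lay in LNP replicate 3. The nearest outside were Ighv7-4 with 49 and Ighv8-5 with 48. The 53 segments left out held 806 counts, 0.823% of all V counts, against 97069 for the members.

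The libraries came from lungs of C57BL/6 mice of wild-type genotype at day 21. The study asked what an inhaled nanomedicine aimed at the STING pathway does in pulmonary fibrosis. The 3 groups, of 3 libraries each, were: saline controls, mice challenged with bleomycin (an antibiotic that injures the lung and is widely used to provoke fibrosis in mice), and bleomycin-challenged mice that also inhaled mCas9/gSting@DOPS lipid nanoparticles, here called LNP. Bleomycin is shared by the bleomycin and LNP groups, and no group received particles without a guide or particles without bleomycin, so the parts of the treatment cannot be told apart. Age and sex are not stated in the labels, nor whether each library came from its own animal, so p-values measure only the spread between these libraries.

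Each B cell builds its antibody from 1 heavy and 1 light chain V segment. Recombination joins heavy V segments to D and J segments and light V segments to J segments, and splicing adds a constant region. A V segment therefore tags the B cells and plasma cells that chose it, and RNA of a V segment in lung rises with the number of such cells and with how much antibody RNA each makes. Plasma cells, the antibody-secreting descendants of B cells, carry far more of it per cell than resting B cells. In bulk tissue fewer cells of a type and less RNA per cell cannot be told apart.

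The V coding exons of 7 segments are shown. All but Iglv2 were the most abundant of their locus in at least 1 library, and Iglv2 is shown beside its near relative Iglv1. They are GENCODE transcripts on GRCm38, the last 300 bases of exon 2 (all 298 for Igkv19-93), on the strand of the gene, written 5' to 3', with capitals where a base differs from the nearest other V segment in alignment. Igkv19-93 (chr6:68736297-68736594, minus strand) stood far from its nearest relative, Igkv10-94, at 78.9% identity over the exon. Ighv2-3 (chr12:113611187-113611486, minus strand) shared 94.4% with Ighv2-6-8, and Ighv1-9 (chr12:114583569-114583868, minus strand) shared 90.2% with Ighv1-63. Igkv1-117 (chr6:68121528-68121827, plus strand) and Igkv1-110 (chr6:68270968-68271267, plus strand) were each other's nearest segments at 96.8%. Iglv1 (chr16:19085017-19085316, minus strand) and Iglv2 (chr16:19260401-19260700, minus strand) shared 97.0%.
Igkv19-93: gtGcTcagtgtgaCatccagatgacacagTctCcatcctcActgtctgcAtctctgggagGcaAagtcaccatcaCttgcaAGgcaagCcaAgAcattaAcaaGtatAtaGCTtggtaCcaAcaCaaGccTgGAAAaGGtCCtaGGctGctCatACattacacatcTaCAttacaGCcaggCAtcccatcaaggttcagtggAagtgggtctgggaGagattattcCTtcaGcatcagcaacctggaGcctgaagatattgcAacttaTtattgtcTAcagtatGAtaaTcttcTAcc
Ighv2-3: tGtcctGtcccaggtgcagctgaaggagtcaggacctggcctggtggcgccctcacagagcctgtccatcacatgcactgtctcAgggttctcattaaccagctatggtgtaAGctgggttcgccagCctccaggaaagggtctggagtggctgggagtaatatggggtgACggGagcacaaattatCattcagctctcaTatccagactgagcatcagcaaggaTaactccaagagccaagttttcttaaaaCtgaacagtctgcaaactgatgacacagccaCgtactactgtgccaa
Ighv1-9: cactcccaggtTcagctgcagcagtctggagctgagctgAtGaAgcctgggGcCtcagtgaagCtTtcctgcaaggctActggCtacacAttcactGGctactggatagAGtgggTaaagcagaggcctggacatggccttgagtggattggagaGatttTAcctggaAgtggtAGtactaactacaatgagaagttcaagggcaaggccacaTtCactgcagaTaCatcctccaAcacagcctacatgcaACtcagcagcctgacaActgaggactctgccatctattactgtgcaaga
Igkv1-117: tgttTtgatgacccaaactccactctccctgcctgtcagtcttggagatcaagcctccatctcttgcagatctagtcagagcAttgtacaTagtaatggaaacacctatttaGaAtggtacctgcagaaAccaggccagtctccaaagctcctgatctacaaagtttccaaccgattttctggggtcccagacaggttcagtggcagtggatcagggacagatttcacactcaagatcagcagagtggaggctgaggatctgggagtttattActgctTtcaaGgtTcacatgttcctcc
Igkv1-110: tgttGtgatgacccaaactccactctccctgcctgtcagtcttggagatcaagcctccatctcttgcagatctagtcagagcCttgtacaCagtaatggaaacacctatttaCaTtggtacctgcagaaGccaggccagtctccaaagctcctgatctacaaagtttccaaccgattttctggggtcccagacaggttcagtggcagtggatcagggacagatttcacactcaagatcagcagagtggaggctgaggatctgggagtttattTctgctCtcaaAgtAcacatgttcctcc
Iglv1: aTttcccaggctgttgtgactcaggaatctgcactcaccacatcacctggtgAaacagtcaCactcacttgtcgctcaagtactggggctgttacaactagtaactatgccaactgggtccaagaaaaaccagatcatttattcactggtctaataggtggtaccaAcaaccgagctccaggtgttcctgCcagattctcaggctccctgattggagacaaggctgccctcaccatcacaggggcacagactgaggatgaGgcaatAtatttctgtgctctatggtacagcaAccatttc
Iglv2: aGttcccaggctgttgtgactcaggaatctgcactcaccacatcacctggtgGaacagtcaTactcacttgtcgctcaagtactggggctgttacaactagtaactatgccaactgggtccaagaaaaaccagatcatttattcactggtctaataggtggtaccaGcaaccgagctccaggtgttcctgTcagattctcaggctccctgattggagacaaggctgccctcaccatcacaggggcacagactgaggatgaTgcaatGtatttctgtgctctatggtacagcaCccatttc

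These letters bear on how safely a count belongs to its segment. Among 346 V segments of the annotation, pseudogenes included, 87 of the 159 members had a relative at 95% identity or more. In 99 members every 100-base window of the whole transcript was found in no other V segment, and in 3 members fewer than 50% of windows were unique. Ighv1-71 and Ighv1-62-2 were identical over the shared exon and Igkv6-20 was 98.3% identical to Igkv6-29, so values of these 3 are uncertain. Igkv1-117 and Igkv1-110 kept 83.9% and 83.8% unique windows.

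Libraries held 56047830 to 69404903 counts over all genes. One library, LNP replicate 3, held RNA that the other 8 did not: the skeletal muscle gene Acta1 was at 3447 CPM (counts relative to library size, with library sizes scaled by TMM) against at most 2.37 elsewhere, and the squamous keratin Krt4 at 767 against at most 3.89. Summed over the marker lists, 6 skeletal muscle genes reached 5972 CPM and 5 squamous epithelial genes 1798 CPM in that library. The sum of 7 lung epithelial genes was 12931 to 30608 CPM in LNP libraries, 15682 to 17348 in bleomycin and 41247 to 53217 in control. LNP replicate 3 held the lowest of these sums, 12931 CPM, below every bleomycin library. Its Cxcl13, a chemokine of lymphoid stroma, stood at 117 CPM against 9.41 to 9.98 in the other LNP libraries, and Glycam1, a gene of lymph node vessels, at 2.91 CPM against 0 and 0.131. The part of such tissue in the results below was not tested, and values are given without this library where it matters. Sting1, the gene named by the guide, stood at 18.4, 23.9 and 20.9 CPM in control, 53.8, 41.5 and 40.5 CPM in bleomycin and 51.8, 62.0 and 44.3 CPM in LNP libraries. Its counts do not show whether the gene was edited. LNP was not called against bleomycin (log2 fold change 0.22 ± 0.17, SE, adjusted p = 0.477), and bleomycin and LNP both lay above control.

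Summed V segment RNA was about as abundant in bleomycin as in control lungs and about 3 times higher in LNP lungs. All 159 members together stood at 124, 102 and 80.9 CPM in control, 94.6, 85.8 and 84.0 CPM in bleomycin, and 284, 321 and 349 CPM in LNP replicates 1 to 3. The bleomycin libraries lay within the control range, and each LNP library lay above every library of both other groups. Group means gave a ratio of 0.860 between bleomycin and control, 3.61 between LNP and bleomycin and 3.11 between LNP and control. Without LNP replicate 3 the last 2 were 3.43 and 2.95. No test is given for a sum over chosen members.

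LNP lay apart from both other groups in the heavy and kappa loci, and in the lambda locus it lay above control but overlapped bleomycin. Heavy V segments summed to 36.2, 32.9 and 24.8 CPM in the controls, 32.4, 31.2 and 32.5 after bleomycin and 82.4, 107.6 and 117.3 with LNP. Kappa V segments summed to 80.7, 59.7 and 52.0 CPM in the controls, 47.1, 47.0 and 47.4 after bleomycin and 172.3, 202.9 and 217.2 with LNP. All 3 bleomycin libraries lay below all 3 control libraries for kappa, with a ratio of means of 0.736, but within the control range for heavy segments. Lambda V segments summed to 7.34, 9.70 and 4.20 CPM in the controls, 15.1, 7.56 and 4.08 after bleomycin and 29.7, 10.7 and 14.9 with LNP. Every LNP library lay above every control library, while bleomycin replicate 1 exceeded LNP replicates 2 and 3 and the bleomycin libraries overlapped both other groups. The lambda share of light chain V counts ran from 5.00% in LNP replicate 2 to 24.3% in bleomycin replicate 1, with every group overlapping the others.

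**Figure D1:**
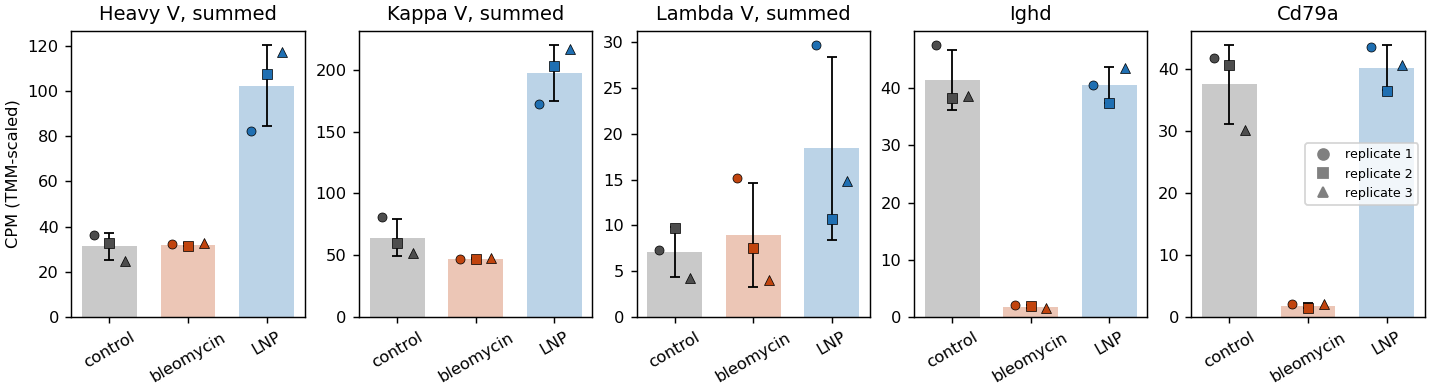
Summed level of heavy, kappa and lambda V segments and level of the B cell genes Ighd and Cd79a in each library (CPM, TMM-scaled), with bars for the mean and error bars for the SD of 3 libraries per group. Heavy sums of the bleomycin group lie within the control range and its kappa sums below that range, while its Ighd and Cd79a sit far below control. LNP libraries are highest for heavy and kappa sums.

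Genes of resting B cells did not follow the V sums between control and bleomycin. Cd79a, the signalling partner of the B cell receptor, stood at 41.7, 40.5 and 30.1 CPM in the controls, 2.03, 1.40 and 2.01 after bleomycin and 43.5, 36.4 and 40.6 with LNP. Its ratio of means was 0.0484 for bleomycin over control (log2 fold change -4.37 ± 0.21, adjusted p = 1.25e-05), beside 0.860 for summed V segments. Ighd, the constant region of naive B cells, gave 0.0434. All 12 of 12 mature B genes fell in bleomycin against control and rose in LNP against bleomycin, and 1 of 12 rose in LNP against control. Of all tested genes, 18.5% fell in the first contrast, 4.28% rose in the second and 4.95% rose in the third. Their summed level was 179 to 247 CPM in the controls, 39.9 to 42.5 after bleomycin and 234 to 238 with LNP.

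Constant regions showed which antibody classes the V segments could be spliced to. Ighm (IgM) stood at 225.9, 175.5 and 119.3 CPM in the controls, 44.5, 52.6 and 60.4 after bleomycin and 477, 353 and 527 with LNP, and fell then rose with no overlap (log2 fold change -1.72 ± 0.25, adjusted p = 0.000944, and 3.11 ± 0.26, adjusted p = 0.000447). Igha (IgA) stood at 39.3, 48.3 and 70.9 CPM in the controls, 151.8, 122.8 and 112.0 after bleomycin and 229.8, 346.1 and 113.7 with LNP. It rose in bleomycin against control (1.29 ± 0.36, adjusted p = 0.0221, not called without control replicates 1 or 2 or bleomycin replicates 1 or 2) and was not called between LNP and bleomycin (adjusted p = 0.181). Ighm made up 51.2% to 71.4% of heavy constant CPM in the controls, 20.9% to 33.4% after bleomycin and 43.3% to 58.0% with LNP. Igkc, the kappa constant region, was not called between bleomycin and control (ratio 0.884, adjusted p = 0.312) and 4.68 times higher in LNP than in bleomycin (adjusted p = 4.15e-05), close to the ratio of 4.19 for kappa V segments. Ighg2c (an IgG class) stood at 16.2, 27.6 and 144.3 CPM in LNP libraries against at most 1.37 in any other. Of 12 constant region and J chain genes tested, 3 rose and 4 fell in bleomycin against control, beside 15.2% and 18.5% of all tested genes. In LNP 10 rose against bleomycin and 8 against control, beside 4.28% and 4.95% of all tested genes.

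Some plasma cell genes rose in LNP against bleomycin, as the V sums did, and others were not called. Jchain, which links IgA and IgM into multimers, stood at 17.7, 12.3 and 13.0 CPM in the controls, 22.4, 16.6 and 15.2 after bleomycin and 85.3, 82.2 and 36.7 with LNP (LNP against bleomycin 1.91 ± 0.31, adjusted p = 0.0129, not called without bleomycin replicate 2). Mzb1, an endoplasmic reticulum protein of plasma and marginal zone B cells, stood at 3.79, 4.53 and 4.17 CPM in the controls, 1.29, 1.27 and 1.01 after bleomycin and 7.12, 7.04 and 10.1 with LNP. Tnfrsf17, the plasma cell receptor BCMA, had no count in 4 of the 9 libraries and at most 0.393 CPM. Irf4 and Derl3 fell in bleomycin and rose in LNP against bleomycin. Prdm1 fell from a mean of 14.4 CPM in control to 4.29 in bleomycin and stood at 5.85 with LNP (LNP against bleomycin adjusted p = 0.477). Sdc1 rose from a mean of 316 CPM in control to 496 in bleomycin and stood at 422 with LNP (adjusted p = 0.0308 and 0.507). Xbp1, Txndc5, Eaf2 and Tnfrsf17 were not called in any contrast. Of the 10 plasma cell genes, 1 rose and 4 fell in bleomycin against control, beside 15.2% and 18.5% of all tested genes. In LNP 4 rose against bleomycin and 2 against control, beside 4.28% and 4.95% of all tested genes. Their summed level, mostly from genes that other lung cells also express, was 814 to 1057 CPM in the controls, 970 to 1317 after bleomycin and 925 to 1146 with LNP.

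Single V segments were tested in 1 fit over all genes with edgeR's quasi-likelihood test and a Benjamini-Hochberg adjusted p under 0.05. Low counts kept 11 members, of 52 to 151 counts each, out of the fit, so 148 were tested, 71 heavy, 74 kappa and 3 lambda. Segments varied more between libraries of a group than most genes did. The median coefficient of variation was 56.0% in the controls, 58.8% after bleomycin and 64.6% with LNP for tested V segments with a count, against 17.4%, 14.3% and 23.3% for all tested genes.

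In bleomycin against control, 4 V segments rose and 17 fell, where 15.2% of all tested genes rose and 18.5% fell. The calls were 2 up and 7 down among heavy, 2 up and 9 down among kappa, and 1 down among lambda segments. The median log2 fold change of the 148 was -0.28, beside -0.05 for all tested genes. Groups did not overlap for 9 higher and 35 lower segments, with 25.9% and 29.6% of all genes doing so. As shares of the tested V segments the calls came to 2.70% and 11.5%, below the background in both directions. V segments varied more between libraries than most genes did, so a lower share of calls does not show smaller changes.

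Some heavy segments counted in every control library had no or few counts after bleomycin. Ighv1-63 stood at 5.11, 0.0757 and 2.43 CPM in the controls, 0, 0 and 0 after bleomycin and 0.0833, 0.507 and 0.592 with LNP. It was the most abundant heavy segment of control replicate 1, with 14.9% of heavy V FPKM (fragments per kilobase and per library depth, which corrects for length), and was scarce in control replicate 2. It was at least 158-fold lower in bleomycin than in control, taking 3 counts over the group as the floor (adjusted p = 0.00984), and was called in 9 of 9 fits that each left out 1 library. Ighv1-69 stood at 2.46, 0.908 and 0.600 CPM in the controls, 0.197, 0.171 and 0.227 after bleomycin and 2.86, 1.73 and 0.523 with LNP. Its control and bleomycin libraries did not overlap (log2 fold change -2.73 ± 0.71, adjusted p = 0.0163), and the call held in 6 of 9 such fits, not without control replicate 1 or bleomycin replicates 1 or 2.

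Kappa segments fell likewise at single loci. Igkv17-127 stood at 2.12, 1.18 and 1.26 CPM in the controls, 0, 0.155 and 0.121 after bleomycin and 1.42, 5.79 and 3.17 with LNP. It fell in bleomycin (-4.00 ± 0.83, adjusted p = 0.00583) and rose in LNP against bleomycin (5.19 ± 0.86, adjusted p = 0.0135), with control and LNP overlapping. Igkv13-85 stood at 4.21, 0.288 and 1.09 CPM in the controls, 0.229, 0.155 and 0.287 after bleomycin and 0.583, 0.687 and 0.819 with LNP, and fell in bleomycin (-3.04 ± 0.83, adjusted p = 0.0192). Its control values ran from just above the bleomycin libraries to above every other library, and 62.1% of its windows were unique. Igkv1-135 fell by 1.49 ± 0.49 on the log2 scale (adjusted p = 0.0418), from 1.42 to 4.43 CPM in control to 0.737 to 1.10 in bleomycin. Iglv3, the rarest lambda segment, fell from 0.229 to 0.702 CPM in control to at most 0.124 in bleomycin (adjusted p = 0.0434). With 1 library left out, the fall of Igkv17-127 was called in 9 of 9 fits and its rise in 8 (not without bleomycin replicate 2), and the falls of Igkv13-85, Igkv1-135 and Iglv3 in 6, 3 and 2.

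The 4 segments that rose in bleomycin were Igkv6-23, Igkv2-137, Ighv5-17 and Ighv1-62-3. Igkv6-23 stood at 1.60, 0.969 and 1.53 CPM in the controls, 2.65, 2.84 and 2.93 after bleomycin and 2.48, 2.82 and 3.36 with LNP. Bleomycin and LNP libraries overlapped and both lay above control (1.04 ± 0.28, adjusted p = 0.0175, and 1.08 ± 0.28, adjusted p = 0.0418). Igkv2-137 rose from 0.257 to 0.571 CPM in control to 1.06, 1.26 and 1.5 in bleomycin (1.77 ± 0.48, adjusted p = 0.0193). Ighv5-17, the most abundant heavy segment of bleomycin replicates 2 and 3, stood at 0.310, 1.03 and 0.5 CPM in the controls, 1.26, 2.44 and 3.25 after bleomycin and 4.62, 0.900 and 1.97 with LNP (1.91 ± 0.65, adjusted p = 0.0473). Ighv1-62-3 was at 0 in every control library and in bleomycin replicate 2, at 0.410 and 0.136 CPM in the other bleomycin libraries, and was at least 11.7-fold higher in bleomycin over the group (adjusted p = 0.0367). It falls outside the naming rule and was named to complete the count. Of its windows 60.1% were unique, and it was 99.0% identical to Ighv1-72, which stood at 3.06 CPM in bleomycin replicate 1. The part of Ighv1-72 reads in its counts was not tested. None of these 4 was called in all 9 fits that each left out 1 library. Igkv6-23 was called in 8 (not without bleomycin replicate 2), Igkv2-137 in 5, Ighv5-17 in 4 and Ighv1-62-3 in 2. The LNP against control call of Igkv6-23 held in 1 of 9, the fit without LNP replicate 3.

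Ighv1-5 shows a level that belonged to a part of the bleomycin group. It stood at 3.16, 2.11 and 0.0756 CPM in bleomycin replicates 1 to 3, and at 0.0833 to 0.386 CPM in every control and LNP library. It was the top heavy segment of bleomycin replicate 1, with 9.50% of heavy V FPKM, and its lowest value of the 9 lay in bleomycin replicate 3 (bleomycin against control adjusted p = 0.0529).

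In LNP against bleomycin, 37 V segments rose and none fell, where 4.28% of all tested genes rose and 1.87% fell. At an unadjusted p under 0.05, 83 were higher and 1 lower, and DESeq2 called 68 higher and 1 lower. The share of all genes was not computed at either setting. The calls fell on 15 heavy and 22 kappa segments. The median log2 fold change was 1.92, beside 0.04 for all tested genes. Groups did not overlap for 75 higher and 1 lower segment, against 15.4% and 14.5% of all genes; the lower was Ighv1-71, whose exon has an identical copy. Group means over all 159 members were higher in LNP for 145, and the share of all genes was not computed. Without LNP replicate 3 the test called 53 higher, among them all 37, and 1 lower. Without bleomycin replicate 2 it called 4, without bleomycin replicate 1 it called 7, without bleomycin replicate 3 it called 14, and without LNP replicate 2 it called 16. Leaving out LNP replicate 1, control replicate 1 or control replicate 3 gave 19, 19 and 21. Fitting the bleomycin and LNP libraries alone gave 7.

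**Figure D2:**
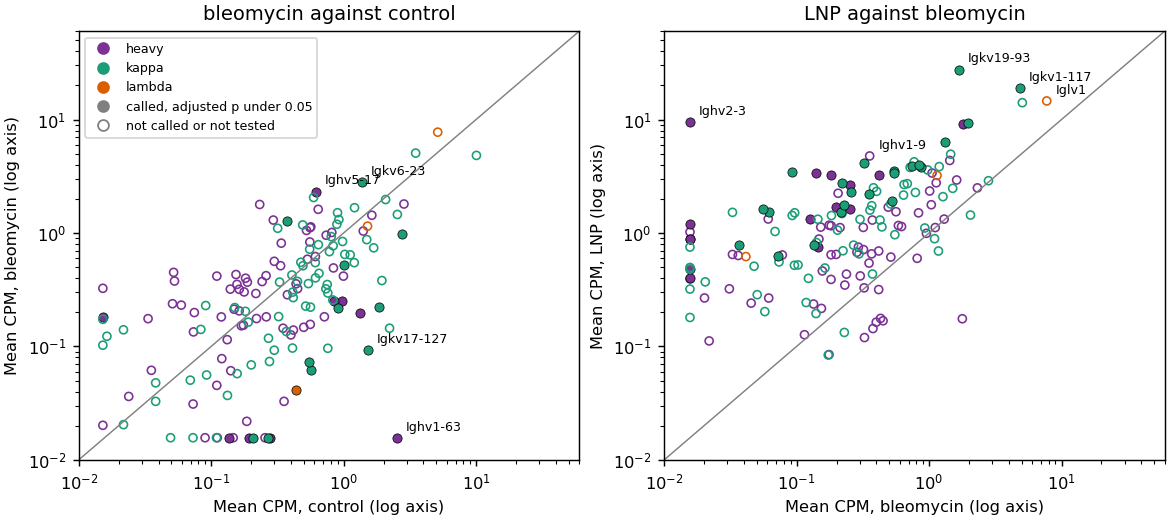
Mean CPM of each V segment in 2 groups (log axes, 3 libraries per group, 1 point per segment), for bleomycin against control and LNP against bleomycin; means at or under 3 counts over a group are drawn at that level, and filled points passed an adjusted p of 0.05. Points scatter on both sides of the line of equality on the left and lie mostly above it on the right, with Ighv2-3 at the floor in bleomycin.

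Ighv2-3 and Igkv19-93 led their loci by FPKM in the same LNP libraries, replicates 1 and 2. Ighv2-3 stood at 0.0979, 0.121 and 0.114 CPM in the controls, 0, 0 and 0 after bleomycin and 14.3, 13.8 and 0.348 with LNP. LNP replicates 1 and 2 stood far above all others and replicate 3 only slightly above control. Over the group it was at least 636-fold higher in LNP than in bleomycin (adjusted p = 0.0171) and rose against control by 6.39 ± 1.27 on the log2 scale (adjusted p = 0.0221). With 1 library left out these calls held in 7 and 6 of 9 fits, the first lost without bleomycin replicate 1 or 2 and the second lost with each control library left out in turn. It held 18.4% of heavy V FPKM in LNP replicate 1 and 13.9% in replicate 2.

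Igkv19-93 stood at 1.58, 1.26 and 0.786 CPM in the controls, 2.90, 1.41 and 0.695 after bleomycin and 39.6, 35.4 and 7.65 with LNP. Every LNP library lay above every other library, with replicate 3 the lowest of the LNP values. The rise was 4.05 ± 0.69 on the log2 scale against bleomycin (adjusted p = 0.0144, called in 8 of 9 fits leaving out a library) and 4.51 ± 0.70 against control (adjusted p = 0.00525, called in 9 of 9). It held 23.6% and 18.0% of kappa V FPKM in LNP replicates 1 and 2. Its family has a single member, and all of its windows were unique among V segments.

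Other abundant segments rose in LNP against bleomycin with other libraries in the lead. Ighv1-55, the heavy segment of highest mean FPKM, stood at 1.76, 2.95 and 3.85 CPM in the controls, 1.54, 1.91 and 1.95 after bleomycin and 4.61, 15.4 and 7.20 with LNP (2.33 ± 0.45, adjusted p = 0.0210). Igkv1-117 stood at 14.1, 5.40 and 10.7 CPM in the controls, 3.92, 4.98 and 5.58 after bleomycin and 13.5, 29.2 and 14.0 with LNP (1.97 ± 0.40, adjusted p = 0.0237), with LNP and control overlapping. LNP replicate 2 was the highest library for both. Igkv1-110, its near relative, stood at 3.96, 2.47 and 4.06 CPM in the controls, 8.11, 4.33 and 2.74 after bleomycin and 7.33, 11.7 and 23.2 with LNP, and rose against control (2.01 ± 0.49, adjusted p = 0.0350) but was not called against bleomycin (1.48 ± 0.48, adjusted p = 0.0976). Here LNP replicate 3 led, so the pair of 96.8% identity did not share its leading library. Igkv10-96 stood at 5.98, 5.24 and 16.8 CPM in LNP libraries against at most 3.16 in any other, and rose in both contrasts (2.24 ± 0.54, adjusted p = 0.0412, and 2.17 ± 0.53, adjusted p = 0.0362). Of 9 fits that each left out 1 library, the calls against bleomycin held in 5 for Ighv1-55, 5 for Igkv1-117 and 2 for Igkv10-96, and those against control in 4 for Igkv1-110 and 5 for Igkv10-96. The calls of Ighv1-55 and Igkv1-117 against bleomycin were lost with each bleomycin library left out in turn and without LNP replicate 2.

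Igkv14-111 was high in all 3 LNP libraries. It stood at 0.832, 1.01 and 0.915 CPM in the controls, 0.492, 1.82 and 1.63 after bleomycin and 8.73, 5.65 and 4.53 with LNP. Its rise was 2.26 ± 0.46 against bleomycin (adjusted p = 0.0241) and 2.77 ± 0.47 against control (adjusted p = 0.00748), and these calls held in 5 and 9 of 9 fits that left out a library. In LNP against bleomycin the calls that held in 9 of 9 such fits were Ighv1-74 and Ighv1-80, picked out here after their values were seen. Ighv1-80 stood at 1.06, 1.33 and 0.529 CPM in the controls, 0.262, 0.264 and 0.227 after bleomycin and 3.71, 1.83 and 2.44 with LNP (3.40 ± 0.45, adjusted p = 0.00603). Ighv1-74 stood at 0.196, 0.318 and 0.315 CPM in control, 0 in each bleomycin library and 0.611, 1.33 and 0.714 in LNP libraries, at least 55.7-fold higher over the group. Both also fell in bleomycin against control in 9 of 9 fits, so that their bleomycin libraries lay apart from both other groups.

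Rarer segments rose from near 0. Ighv1-4 had 1 bleomycin library with a count, at 0.0328 CPM, control libraries at 0.0653 to 0.129 and LNP libraries at 0.194, 2.52 and 0.906 (adjusted p = 0.0202). Igkv1-99 stood at 0 to 0.106 CPM in bleomycin and 0.153, 3.37 and 1.39 in LNP libraries (4.81 ± 1.17, adjusted p = 0.0434). Igkv3-12 stood at 0.386 to 0.702 CPM in the controls, 0, 0.186 and 0 after bleomycin and 1.28, 1.39 and 1.92 with LNP (4.57 ± 1.05, adjusted p = 0.0357). The last was high in all 3 LNP libraries, while the other pair was led by replicate 2. With 1 library left out, the calls of Ighv1-4, Igkv1-99 and Igkv3-12 held in 5, 2 and 2 of 9 fits.

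Against control, 15 V segments rose in LNP and none fell, where 4.95% of all tested genes rose and 3.08% fell. At an unadjusted p under 0.05, 64 were higher and 0 lower, and DESeq2 called 51 higher and 0 lower. The share of all genes was not computed at either setting. The median log2 fold change was 1.60, beside 0.00 for all tested genes, and 66 segments were higher without overlap against 13.7% of all genes. The 15 were 6 heavy and 9 kappa segments. Without LNP replicate 3 the count was 19, and without control replicate 3 it was 2. Omitting control replicate 1, control replicate 2 or bleomycin replicate 2 gave 5, 5 and 6, and omitting LNP replicate 2 gave 9. Ighv8-12 stood at 0.242 to 0.294 CPM in control and 1.53, 5.84 and 2.28 in LNP libraries (3.62 ± 0.77, adjusted p = 0.0198). Ighv2-9-1 stood at 0 to 0.359 CPM in control and 3.33, 2.37 and 1.01 in LNP libraries (3.78 ± 0.96, adjusted p = 0.0401). Ighv5-9-1 stood at 0.0908 to 0.604 CPM in control and 0.986, 3.21 and 5.84 in LNP libraries (3.00 ± 0.78, adjusted p = 0.0454). Ighv6-3 stood at 0.457 to 0.586 CPM in control and 4.68, 1.15 and 4.30 in LNP libraries (2.68 ± 0.70, adjusted p = 0.0460). In each of these 4 every LNP library lay above every control library, by margins that differed between libraries. Igkv2-137 rose in LNP as in bleomycin, to 2.44, 0.982 and 2.84 CPM (2.49 ± 0.49 against control, adjusted p = 0.0140). With 1 library left out, the calls held in 7 of 9 fits for Igkv2-137, 5 for Ighv8-12, 3 for Ighv2-9-1, 3 for Ighv6-3 and 1 for Ighv5-9-1. The LNP comparisons share libraries with each other and with the bleomycin contrast, so their calls are not independent.

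**Figure D3:**
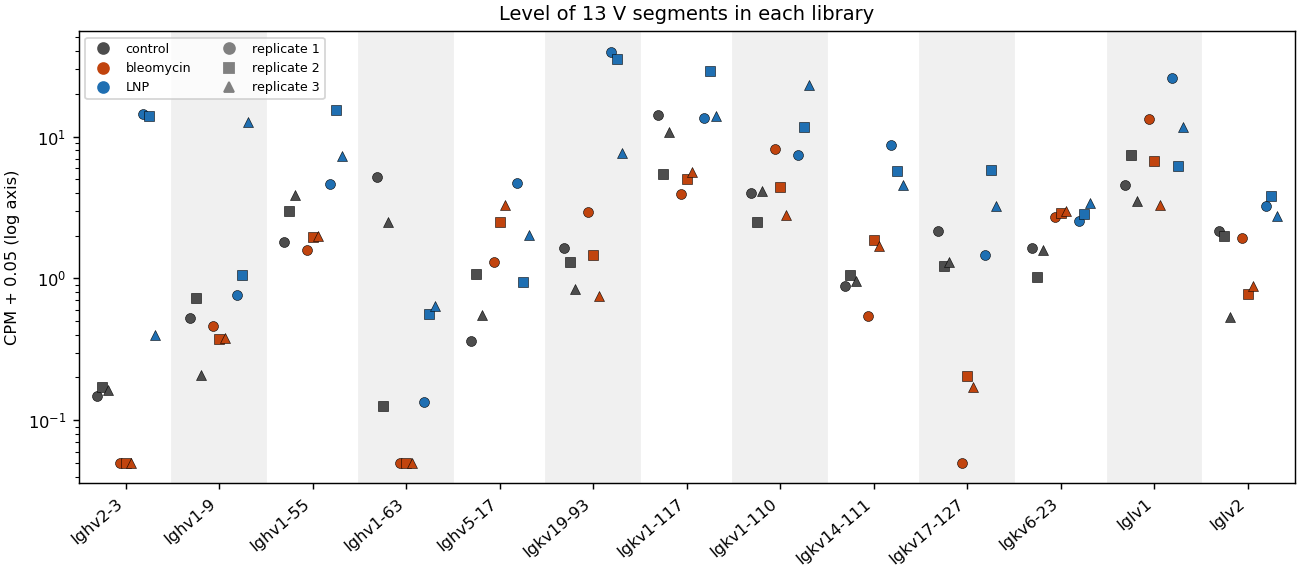
CPM plus 0.05 (log axis) of 13 V segments in each of the 9 libraries, with colour for the group and shape for the replicate number. Ighv2-3 and Igkv19-93 are highest in LNP replicates 1 and 2, Ighv1-9 in LNP replicate 3 only, Ighv1-63 lies at 0 in the 3 bleomycin libraries, and the Iglv1 groups overlap.

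Iglv1 and Iglv2 were not called in any contrast. Iglv1, which dominates the lambda repertoire of mice, stood at 4.52, 7.39 and 3.49 CPM in the controls, 13.3, 6.70 and 3.25 after bleomycin and 25.9, 6.15 and 11.7 with LNP. Bleomycin replicate 1 and LNP replicates 1 and 3 lay above every control library, bleomycin replicate 2 and LNP replicate 2 within the control range, and bleomycin replicate 3 below it (adjusted p = 0.466 between bleomycin and control and 0.367 between LNP and bleomycin). Iglv2 stood at 2.12, 1.94 and 0.486 CPM in the controls, 1.88, 0.729 and 0.831 after bleomycin and 3.19, 3.75 and 2.70 with LNP, where LNP lay above both other groups (adjusted p = 0.129 against bleomycin and 0.261 against control). Iglc1, the constant region joined to Iglv1, was likewise highest in bleomycin replicate 1 and LNP replicate 1 of their groups, at 10.4 and 21.5 CPM.

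Several segments were high in a single library. Of the 159 members, 133 had their highest CPM in an LNP library (35, 40 and 58 in replicates 1, 2 and 3), 16 in a bleomycin and 10 in a control library. In 27 members the highest library was at least 3 times the next, and 26 of those peaks lay in LNP libraries, 2, 7 and 17 in replicates 1 to 3. No share of all genes was computed for either count, and the minimum over all libraries favours segments high in LNP. Ighv1-9 stood at 12.6 CPM in LNP replicate 3, at 0.708 and 1.01 in the other LNP libraries and at 0.157 to 0.681 in every control and bleomycin library. It was not called in LNP against bleomycin (adjusted p = 0.0683), although no LNP library overlapped the others. Igkv4-57 stood at 9.70 CPM in that library and at most 1.06 elsewhere, Igkv12-46 at 9.08 against at most 1.95, Ighv9-3 at 7.35 against at most 1.57 and Ighv1-64 at 6.10 against at most 1.64. Of these, Ighv9-3 was called in LNP against bleomycin (4.14 ± 0.80, adjusted p = 0.0203), in 6 of 9 fits with 1 library left out, lost with each bleomycin library left out in turn. All 5 peaks lay in the library that also held the muscle and squamous RNA, and the part of that tissue in them was not tested. Igkv3-2 peaked instead in LNP replicate 2, at 5.01 CPM against at most 1.22. A control example was Igkv12-89, at 5.13 CPM in control replicate 2, 0.229 and 0.473 in the other controls and 0.257 to 3.36 elsewhere.

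Which segments held the largest shares differed between libraries of a group. By FPKM, the leading heavy segment was Ighv1-63 in control replicate 1 and Ighv1-55 in replicates 2 and 3 (8.15% and 14.3% of heavy V FPKM). It was Ighv1-5 and then Ighv5-17 in the bleomycin libraries (7.33% and 9.26% for Ighv5-17 in replicates 2 and 3), and Ighv2-3 in LNP replicates 1 and 2 but Ighv1-9 in replicate 3 (11.4%). The leading kappa segment was Igkv1-117 in control replicates 1 and 3 (16.3% and 19.4%) and in bleomycin replicates 2 and 3 (9.95% and 11.1%). Igkv12-89 led in control replicate 2 (9.47%), Igkv1-110 in bleomycin replicate 1 (16.3%) and LNP replicate 3 (9.95%), and Igkv19-93 in LNP replicates 1 and 2. In neither locus was the leader of all 3 libraries of a group the same segment.

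Evenness of use overlapped between the groups. The effective number of segments (the inverse of the summed squared FPKM shares, which equals the number of segments if all were used alike) was 21.8, 31.0 and 20.3 for heavy segments in the controls, 24.2, 31.5 and 24.8 after bleomycin and 16.8, 19.8 and 27.6 with LNP. For kappa it was 19.4, 32.2 and 16.6 in the controls, 18.3, 27.0 and 23.4 after bleomycin and 13.2, 15.7 and 28.5 with LNP. LNP replicates 1 and 2 were the least even and replicate 3 among the more even libraries. At an equal depth of 1732 heavy V reads, 63.0 to 69.0 segments would be seen in the controls, 57.0 to 66.0 after bleomycin and 68.6 to 75.9 with LNP. At 2875 kappa V reads the numbers were 70.0 to 73.6, 65.0 to 68.9 and 75.1 to 76.8, in that order, and LNP lay above bleomycin without overlap in both loci. The minimum over all libraries favours segments seen in LNP, which hold the most V counts. In the table as a whole 92 members had a count in all 9 libraries.

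**Figure D4:**
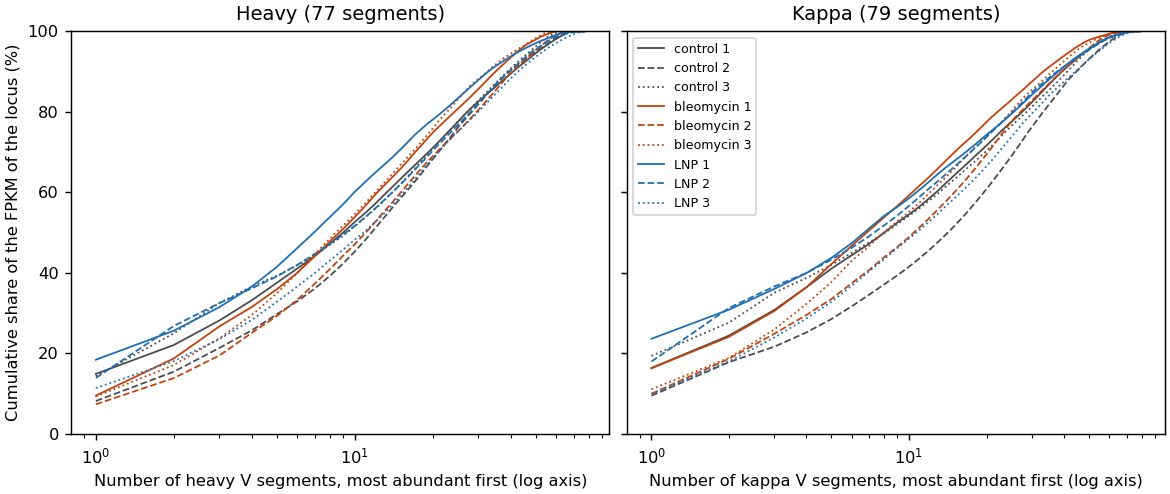
Cumulative share of the FPKM of a locus (percent) held by its V segments, ranked from the most abundant in each library (log axis), for 77 heavy and 79 kappa segments. The LNP replicate 1 line starts highest in both loci, at 18.4% and 23.6%, and lines of the 3 groups cross.

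Family shares differed between libraries, and the Ighv2 share was high where a single member was high. Ighv1, the largest heavy family with 40 members, held 68.5%, 59.2% and 72.5% of heavy V FPKM in the controls, 58.1%, 58.4% and 50.8% after bleomycin and 42.1%, 52.7% and 56.3% with LNP, so that control lay above both other groups. Ighv2, with 6 members, held 3.17%, 2.54% and 2.77% in the controls, 1.57%, 1.17% and 1.77% after bleomycin and 23.6%, 18.8% and 2.66% with LNP. Its high values lay in the 2 libraries where Ighv2-3 was high. Igkv1, with 7 members, held 25.2% ± 10.1 (SD, n = 3) of kappa V FPKM in the controls, 22.4% ± 2.87 after bleomycin and 18.5% ± 4.35 with LNP, which overlapped. Calls were spread over families: of the 17 families with at least 3 members, 14 had at least 1 segment that rose in LNP against bleomycin, and Ighv14, Ighv3 and Igkv2 had none. Among 37 tested Ighv1 members 9 rose, among 17 of Igkv4 3, among 7 of Igkv3 4 and among 4 of Ighv2 3, beside 4.28% of all tested genes.

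Similarity of use between libraries was read as the shared part of FPKM shares, which is 100% for 2 libraries of the same composition. For heavy segments, libraries of a group shared 61.6% to 69.3% in the controls, 43.5% to 68.6% after bleomycin and 48.9% to 59.5% in LNP. Control and bleomycin libraries shared 41.8% to 64.3%, control and LNP 44.4% to 61.5%, and bleomycin and LNP 42.2% to 56.9%. For kappa segments the ranges within groups were 65.3% to 75.0%, 56.9% to 78.3% and 57.1% to 68.0%, and those between groups 56.1% to 67.4%, 54.9% to 66.7% and 52.1% to 66.9% in the same order. For heavy segments every pair of control libraries shared more than any pair that held an LNP library, and the other ranges overlapped. Position along the locus did not order the changes: over 71 heavy segments in a span of 2427 kb and 74 kappa segments in 3148 kb, Pearson's r between position and log2 fold change lay between -0.10 and 0.16 in the 3 contrasts, a description across segments that share libraries.

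**Figure D5:**
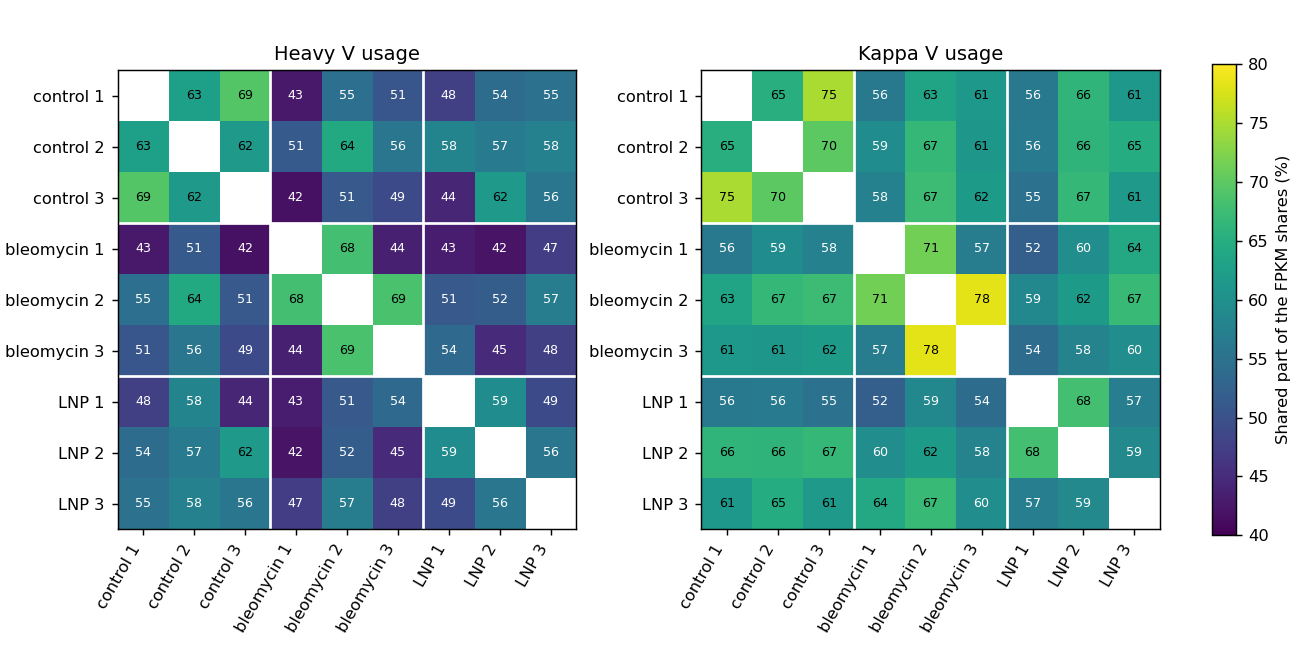
Shared part of the FPKM shares (percent, colour and number in each cell) for every pair of the 9 libraries, heavy segments on the left and kappa on the right, with white lines between groups. Control pairs share 62% to 69% of heavy use, and bleomycin replicates 1 and 3 share 44%.

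The rise of the LNP sums was spread over many segments with a few large contributors. On the CPM scale, not corrected for length, Ighv2-3 made up 13.5% of the summed heavy difference between LNP and bleomycin, Ighv1-55 10.3% and Ighv1-9 6.28%, and 68 of 77 heavy members had a higher LNP mean. Among kappa members Igkv19-93 made up 17.2%, Igkv1-117 9.37% and Igkv1-110 6.00%, and 74 of 79 had a higher LNP mean. For these counts of members no share of all genes was computed, and the minimum over all libraries favours segments high in LNP. Without the most abundant segment of each library the ratio of LNP to bleomycin was 3.05 for heavy and 4.02 for kappa sums, near the 3.20 and 4.19 with it.

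Transcription factors that act at V promoters and at the antibody enhancers were read beside the segments. Pou2af1, the B cell coactivator of the octamer factors, stood at 14.9, 13.9 and 11.2 CPM in the controls, 1.02, 1.65 and 1.59 after bleomycin and 16.4, 14.6 and 22.0 with LNP. It fell in bleomycin against control (-3.23 ± 0.26, adjusted p = 8.36e-05) and rose in LNP against bleomycin (3.64 ± 0.26, adjusted p = 0.000144). The broadly expressed octamer factor Pou2f1 was not called in any contrast (adjusted p of 0.755 to 0.942). Spi1, a factor of myeloid and B cells, rose in bleomycin (1.06 ± 0.14, adjusted p = 0.000582). Of the 12 factors 1 rose and 9 fell in bleomycin against control, 8 rose in LNP against bleomycin and 2 rose in LNP against control. Of the V(D)J recombination list, the recombinase gene Rag1 was at most 0.196 CPM, while Vpreb3, a gene of B lineage cells, stood at 20.1, 24.2 and 27.7 CPM in the controls, 1.57, 3.09 and 4.10 after bleomycin and 16.2, 11.5 and 9.46 with LNP. Of the 3 of 7 listed genes tested, 2 fell in bleomycin and 1 rose in LNP against bleomycin. Of 6 germinal centre genes 3 rose and 2 fell in bleomycin, 1 rose in LNP against bleomycin and 1 fell in LNP against control. Beside these lists, 15.2% of all tested genes rose and 18.5% fell in bleomycin against control. In LNP against bleomycin 4.28% rose, and in LNP against control 4.95% rose and 3.08% fell.

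Other lymphoid markers were read beside the V segments, and their part was not tested. Unlike the summed V level, T cell genes fell in bleomycin and were not called in LNP against control. All 8 of 8 T cell genes fell in bleomycin against control and rose in LNP against bleomycin, with adjusted p of 0.0593 to 0.980 in LNP against control, and summed to 65.1 to 72.3 CPM in the controls, 18.2 to 19.1 after bleomycin and 70.4 to 89.8 with LNP. Of 6 tested lymphoid stroma genes 2 rose and 3 fell in bleomycin, 4 rose in LNP against bleomycin, and 3 rose and 1 fell in LNP against control. With the untested Glycam1, their sum was 170 to 198 CPM in the controls, 173 to 180 after bleomycin and 273 to 433 with LNP. The value of 433 was that of LNP replicate 3, the library with muscle and squamous RNA. Its Cxcl13 stood at 117 CPM, against 9.98 and 9.41 in LNP replicates 1 and 2 and 21.9 to 33.9 after bleomycin. All 4 tested of 7 thymocyte genes fell in bleomycin, with adjusted p of 0.0844 to 0.524 in LNP against bleomycin. Over all tested genes 15.2% rose and 18.5% fell in bleomycin against control. In LNP against bleomycin 4.28% rose, and in LNP against control 4.95% rose and 3.08% fell.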

How the data were processed

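Poly(A) RNA of mouse lung was sequenced from strand-marked libraries, per the labels' protocols. Per the file headers, the authors deposited gene tables of whole-number counts and of FPKM, and a transcript count table. Tools named in the submitters' processing notes are edgeR, fastp and StringTie, without versions. Aligner, build and use of the strand: not given in the sources used here, hence near-identical and antisense genes are uncertain. Gene counts equalled the sums of deposited transcript counts for all 159 members.

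The members and gene lists were chosen with earlier results of these data known. Counts were fitted for all 9 libraries at once with edgeR 4.0.16 (R 4.3.3), TMM scaling, filterByExpr (20794 of 32671 genes kept) and the quasi-likelihood test, with p-values adjusted by Benjamini-Hochberg over all genes tested. CPM use TMM-scaled library sizes, and shares of a locus use the deposited FPKM. In counts simulated from these libraries with 20794 genes, a 4-fold change was called in 61% (bleomycin against control), 51% (LNP against bleomycin) and 68% (LNP against control) of 100 genes, and a 2-fold change in 17%, 18% and 20%. The changed genes were drawn from all tested genes, whose median biological coefficient of variation was 0.26. For tested V segments it was 0.63, so these shares do not carry over to them. Replicate libraries differed by more than sampling noise, with a chi-square of 32.5 or more for each degree of freedom over all genes.

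Segments were named by rule: the 6 heavy and 6 kappa members of highest mean FPKM and all lambda members; per comparison the 5 largest rises and falls among called members at 1 CPM or more in the higher group; the leading segments of each library; the 6 sharpest single-library peaks of at least 5 CPM; and the segments nearest the minimum of 50 counts. Alternatives were RLE and library-size scaling, TMM without antibody, haemoglobin and mitochondrial genes, no filter, DESeq2 1.42.0, limma 3.58.1 on log2(FPKM + 1) and log2(FPKM + 0.1), the 2 groups compared alone, a replicate block and each library left out. All 159 members were matched by identifier to GENCODE transcripts on GRCm38 for their sequences. Promoter sequences of V segments were not analysed here.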

Additional observations from a re-analysis of the deposited data

How the results depend on the processing

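Counts of called V segments moved with the test and the libraries. The share of all genes called was not computed for the alternatives. For LNP against bleomycin, 37 higher became 68 with DESeq2, 51 with limma on log2(FPKM + 0.1), 42 on log2(FPKM + 1) and 16 on log2(FPKM + 1) without a filter, 23 without a count filter and 7 with only the 2 groups compared; RLE scaling gave 36, library-size scaling 39, and TMM without antibody, haemoglobin and mitochondrial genes 37. For LNP against control, 15 higher became 51, 27, 32, 16, 5 and 12 in the same order. For bleomycin against control, 4 higher became 9, 5, 3, 1, 2 and 4 and 17 lower became 25, 21, 14, 8, 9 and 18. DESeq2 called 1 lower in LNP against bleomycin, where edgeR called 0. Leaving out each library gave 4 to 53 higher and 0 to 1 lower for LNP against bleomycin, 2 to 20 higher and 0 lower for LNP against control, and 1 to 8 higher and 6 to 25 lower for bleomycin against control. These fits hold fewer samples, and the cause of the other shifts was not tested.

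Replicate numbers did not pair the samples, read from the deviation of each library from its group mean of log2 CPM, gene by gene. These deviations correlated at r of -0.018 to 0.040 between same-numbered libraries over the tested genes. Not every library correlated best with its own number. A replicate block gave 15 and 8 higher for LNP against bleomycin and control, and 2 higher and 14 lower for bleomycin against control.

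For summed levels, leaving out the most abundant segment of each library gave 29.1 CPM for heavy and 41.0 CPM for kappa segments in bleomycin, 164.8 CPM for kappa in LNP, and 1.95, 1.19 and 3.83 CPM for lambda in control, bleomycin and LNP. Library-size scaling gave 30.7 and 45.1 CPM for heavy and kappa in bleomycin. Leave-one-out ranges in control, bleomycin and LNP were 28.8 to 34.6, 31.8 to 32.5 and 95.0 to 112 CPM for heavy, 55.9 to 70.2, 47.1 to 47.2 and 188 to 210 for kappa, and 5.77 to 8.52, 5.82 to 11.3 and 12.8 to 22.3 for lambda. Sums of FPKM were compared as ratios of group means, with LNP over bleomycin at 3.56, 4.62 and 2.30 for heavy, kappa and lambda. No named segment changed sign while called.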
